A study of Mus musculus with 3 samples.

Results

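C2C12 cells collected 6 h after the gamma-secretase inhibitor DAPT had been washed out were compared with the control library of the same series. The tables hold 3 libraries, and the comparison uses 2 of them, 1 washout library at 6 h and 1 control. Values of table rows that shared a symbol were summed, which left 23298 symbols. A gene was compared when its mean over the 3 libraries was at least 1 FPKM, a fragment count scaled to the length of the transcript and the size of the library, and it was above 0 in all of them. Of 10464 symbols with that mean, 85 short RNAs and 53 symbols listed at 0 in some library were set apart, and 10326 genes were compared.

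C2C12 is a mouse myoblast line, and the series title gives it a human NOTCH1 construct without the extracellular domain, written hN1∆ECD. All groups were grown in DMEM with 20% FBS. The protocol shared by all samples states culture in 10 uM DAPT, with the inhibitor removed 6 h before collection in the 6 h group and 1 h before in the remaining washout library. The control is titled as having no treatment and its column is headed untreated, and neither label says whether it stayed in DAPT or never received it. The promoter that drives the construct, the number of clones and the number of cultures behind a library are not given either. Polyadenylated RNA was sequenced at an estimated depth of 20830000 fragments at 6 h and 23560000 in the control, where 3 fragments on a 1 kb transcript corresponded to 0.144 and 0.127 FPKM.

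A Notch receptor is cut by gamma-secretase inside the membrane, and the freed intracellular domain enters the nucleus, where it joins RBPJ and Mastermind proteins on DNA and activates genes such as the HES and HEY repressors and Nrarp. A receptor without its extracellular domain needs no ligand for this cut, so that gamma-secretase inhibition holds it at the membrane and removal of the inhibitor releases it. In muscle precursors Notch activity is known to hold cells undifferentiated.

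With 1 library in each group there was no test, and no difference has a replicate check. A gene is said to have risen or fallen when the log2(FPKM + 1) difference, 6 h minus control, was at least 1 or at most -1, and passing 2-fold means the same. Folds are ratios of FPKM without the added 1, and the interval after a fold comes from the widths of the deposited 95% bounds, which cover counting and read assignment inside a library and not variation between cultures. By this rule 77 genes rose and 30 fell, 0.746% and 0.291% of the genes compared. Among these genes the deposited bounds of both libraries overlapped only for 4732415M23Rik and Cox7a1. Bounds that lie apart do not mark a large difference, since those of Acta2 were apart at a ratio of 0.947. The share of all compared genes with bounds apart was not counted. On the same scale at least 4-fold was reached by 12 genes that rose and by 0 that fell. The added 1 shrinks the differences of low genes: counted by plain ratio, 96 compared genes lay at or above a ratio of 2 and 91 at or below 0.5, and 25 and 6 were past 4-fold in those directions. The median difference over all genes was -0.06, the central 95% of genes lay between -0.58 and 0.50, and 93.9% of genes lay within 0.5 of 0. More genes thus lay below 0 than above it, which bears on every later count of genes above 0.

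**Figure D1:**
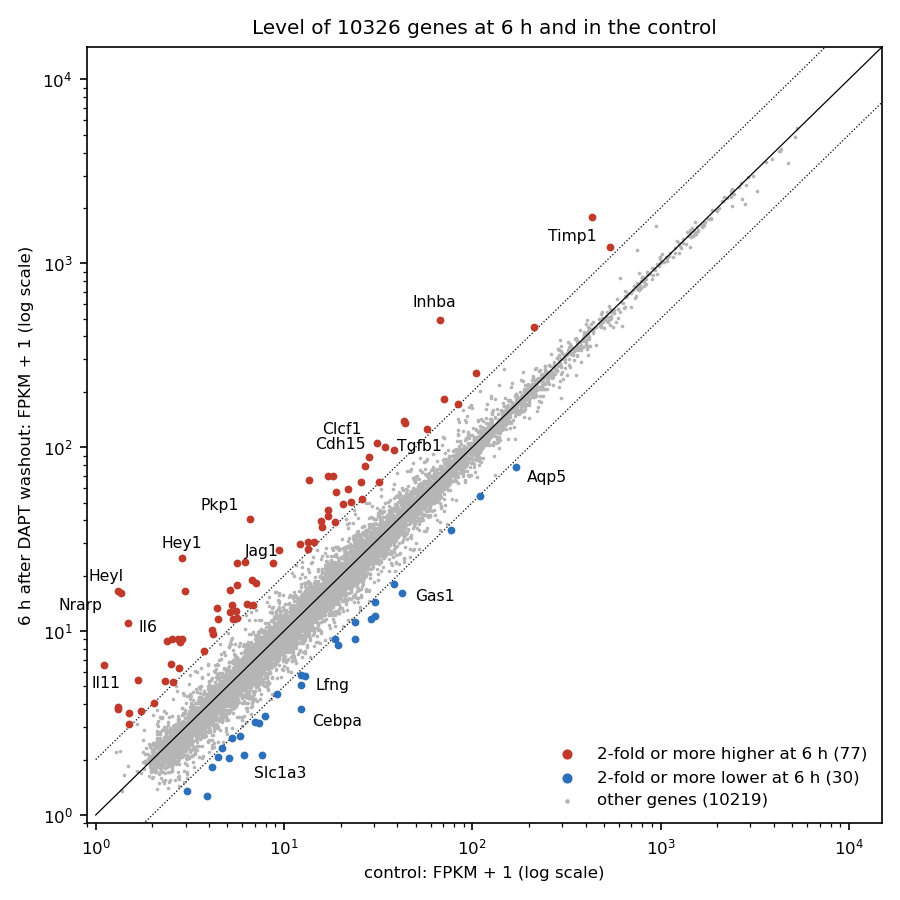
Level of the 10326 compared genes, with FPKM + 1 at 6 h on the vertical axis and in the control on the horizontal axis, both logarithmic. Red points are the 77 genes that passed 2-fold upwards and blue points the 30 that passed it downwards; the solid line marks equal levels and the dotted lines a 2-fold difference. Most genes follow the solid line, and Heyl, Nrarp, Il6 and Il11 lie farthest above it at control levels below 1 FPKM, while Inhba and Timp1 stand out at high levels.

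The stretch around the start site is shown for 5 genes that moved. They are Nrarp and Jag1, which rose, Lfng, which fell, and the cytokine genes Il6 and Il11, which rose. Notch acts on its targets through RBPJ bound to DNA, and sites outside these windows were not looked for. The sequences are those of RefSeq on GRCm38.p6, from 250 bases before to 50 bases after the start, 5′ to 3′ on the strand of the gene; Heyl, Hey1 and Hes1 were not matched, so that 5 of the 8 genes looked up are shown. Capitals mark the core of the RBPJ motif, TGGGAA or on the other strand TTCCCA, and the AP-1 motif TGAGTCA or TGACTCA. The windows are chr2:25180508-25180807 on the plus strand for Nrarp, chr2:137116471-137116770 on the minus strand for Jag1, chr5:140607091-140607390 on the plus strand for Lfng, chr5:30012864-30013163 on the plus strand for Il6 and chr7:4778092-4778391 on the minus strand for Il11, for which the table holds a further start.
Nrarp: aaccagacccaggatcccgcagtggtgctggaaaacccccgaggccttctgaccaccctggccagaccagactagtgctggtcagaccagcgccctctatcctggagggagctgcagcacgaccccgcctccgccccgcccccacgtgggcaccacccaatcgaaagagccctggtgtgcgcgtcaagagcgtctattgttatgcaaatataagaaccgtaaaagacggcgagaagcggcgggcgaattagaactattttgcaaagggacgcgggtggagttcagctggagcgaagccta
Jag1: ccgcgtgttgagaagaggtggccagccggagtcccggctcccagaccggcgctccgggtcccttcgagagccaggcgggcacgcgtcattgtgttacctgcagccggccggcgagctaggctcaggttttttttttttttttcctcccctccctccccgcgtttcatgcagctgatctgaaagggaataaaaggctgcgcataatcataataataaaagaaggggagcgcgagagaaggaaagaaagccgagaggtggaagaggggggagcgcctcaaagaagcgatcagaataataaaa
Lfng: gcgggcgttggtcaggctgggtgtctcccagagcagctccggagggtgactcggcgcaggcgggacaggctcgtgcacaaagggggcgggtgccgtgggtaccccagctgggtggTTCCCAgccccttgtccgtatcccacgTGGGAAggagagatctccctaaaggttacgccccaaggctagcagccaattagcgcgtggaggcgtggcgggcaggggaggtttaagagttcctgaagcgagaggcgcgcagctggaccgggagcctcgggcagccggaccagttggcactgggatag
Il6: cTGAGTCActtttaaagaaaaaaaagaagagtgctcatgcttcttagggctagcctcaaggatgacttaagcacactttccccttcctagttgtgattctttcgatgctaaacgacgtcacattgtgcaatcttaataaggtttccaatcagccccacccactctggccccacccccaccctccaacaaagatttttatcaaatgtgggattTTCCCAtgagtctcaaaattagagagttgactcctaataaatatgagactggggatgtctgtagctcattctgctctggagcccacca
Il11: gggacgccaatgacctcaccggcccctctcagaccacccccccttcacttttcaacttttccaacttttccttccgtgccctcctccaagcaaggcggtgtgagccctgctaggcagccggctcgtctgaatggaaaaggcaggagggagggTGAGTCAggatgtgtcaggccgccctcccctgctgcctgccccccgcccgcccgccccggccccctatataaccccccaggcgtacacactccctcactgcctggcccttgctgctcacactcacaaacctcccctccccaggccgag
Lfng held the RBPJ core at -135 on the other strand and at -108, counted from the start site. Il6 held it at -38 on the other strand and an AP-1 motif at -249, and Il11 held an AP-1 motif at -98. The windows of Nrarp and Jag1 held neither string of letters, and nor did the window at the further Il11 start, which is not shown. Among all genes that rose and had a RefSeq window, 15 of 53 held the RBPJ core (28.3%), beside 9 of 24 that fell (37.5%) and 2032 of 7715 of all compared genes (26.3%). The AP-1 motif was held by 3 of the 53 (5.66%), 2 of the 24 (8.33%) and 331 of the 7715 (4.29%). These are small numbers of genes, the shares among genes that rose are near those of all genes, and a match describes the letters, not a bound site.

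On the log2(FPKM + 1) scale canonical Notch targets held the 3 largest differences, of Heyl, Nrarp and Hey1. The order depends on the scale, and by plain ratio Il11 came before Heyl and Il6 before Hey1. With 5 added in place of 1, Inhba (2.81) and Pkp1 came before Hey1 (2.07). Has2 was then also among the genes that came before Heyl (1.95) and Nrarp (1.90). Of 16 listed targets 12 were compared, 4 rose, 1 fell, and their median difference was 0.41, beside -0.06 over all genes and a background of 0.746% rising. The HES-related repressor gene Heyl had 15.5 FPKM at 6 h against 0.316 FPKM in the control, a 49.1-fold difference (35.3 to 68.4). Nrarp, whose product limits Notch complexes on DNA, had 15.1 FPKM at 6 h against 0.362 FPKM in the control, 41.6-fold higher (27.4 to 63.0). The repressor gene Hey1 stood at 23.9 FPKM against 1.87 FPKM, 12.7-fold higher. Heyl and Nrarp were under 1 FPKM in the control, and Hey1 was not. Jag1, a Notch ligand gene that is itself a target, rose less steeply, at 22.6 FPKM in the 6 h library beside 4.63 FPKM in the control, a ratio of 4.88 (4.36 to 5.46). It lies on chromosome 2 from 136907187 to 136942256 (mm9).

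The targets differed in when they were high. In the order control, 1 h and 6 h, Heyl had 0.316, 0.603 and 15.5 FPKM, Hey1 1.87, 3.52 and 23.9 FPKM, Nrarp 0.362, 0.336 and 15.1 FPKM, and Jag1 4.63, 4.26 and 22.6 FPKM. For these 4 genes the 6 h library stood apart and the 1 h library was far nearer to the control. Hes1, a repressor gene whose own product shuts it off, had 22.5, 254 and 44.8 FPKM, so that its high library was the one at 1 h. At 6 h its ratio to the control was 2.00 (1.76 to 2.27) and its difference 0.97, just under the threshold. Lfng, which encodes the Fringe glycosyltransferase that changes ligand preference, fell to 4.73 FPKM at 6 h, against 11.99 FPKM in the control, with a ratio of 0.394 (0.320 to 0.486) and 11.4 FPKM at 1 h.

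The other 6 compared targets did not pass 2-fold. The ephrin ligand gene Efnb2 had 21.7 FPKM at 6 h against 15.6 FPKM in the control, and the receptor gene Notch3 8.99 and 6.78 FPKM. Cdkn1a, which encodes the cell cycle inhibitor p21, had 141 FPKM at 6 h against 111 FPKM in the control, and Myc 57.7 and 51.8 FPKM. Dtx4, a Deltex ubiquitin ligase gene, had 1.06 and 0.925 FPKM, and the repressor gene Snai2 8.87 and 12.2 FPKM. Both Hes5 and Dtx1 stood at 0 FPKM throughout, while Hes7 and Hey2 had means under 1 FPKM.

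Other genes of the pathway did not pass 2-fold on the log2(FPKM + 1) scale, with Jag1 and Lfng, a ligand and a modifying enzyme gene that did, counted among the targets above. Of 6 further compared genes for ligands and the enzymes that modify receptors and ligands, 16 for receptors and their proteases, and 21 for the nuclear complex and its corepressors, 0 rose and 0 fell, with median differences of -0.21, -0.09 and -0.07. Dlk2, which encodes a Delta-like protein, had 0.562 FPKM at 6 h against 1.77 FPKM in the control, a ratio of 0.319 (0.189 to 0.538) that the added 1 brings to a difference of -0.82, and its locus overlaps that of Abcc10. The gamma-secretase subunit gene Ncstn had 30.6 FPKM at 6 h against 32.4 FPKM in the control. The DNA-binding partner gene Rbpj had 15.4 FPKM at 6 h against 21.7 FPKM in the control. Mouse Notch1 had 6.01 FPKM at 6 h against 3.65 FPKM in the control, and whether fragments of the human construct were counted in it was not tested.

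**Figure D2:**
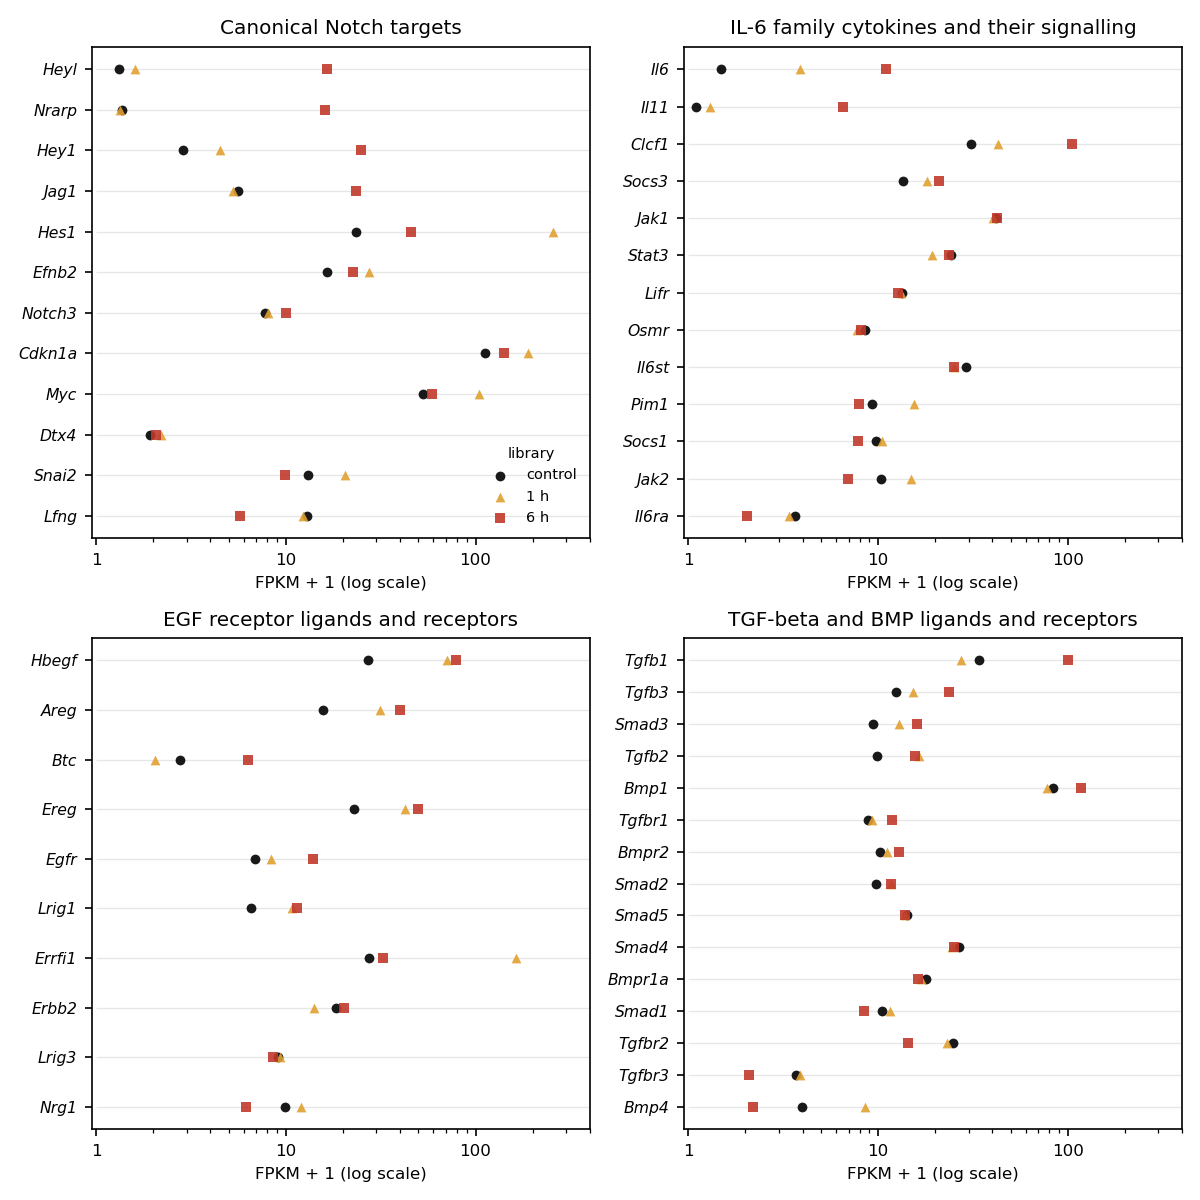
FPKM + 1 on a logarithmic axis for compared genes of 4 lists, with a black circle for the control, a yellow triangle for 1 h and a red square for 6 h; genes are ordered by the difference between 6 h and control. Heyl, Nrarp, Hey1 and Jag1 have their triangle near the circle and their square far to the right, Hes1 has its triangle farthest right, and Hbegf, Areg and Ereg have triangle and square close together.

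Ligand genes of the IL-6 family rose while the genes of their receptors did not. Of 14 compared genes of the IL-6 family and its signalling, 3 rose, all of them ligand genes. The cytokine gene Il6 (chromosome 5, 30339701 to 30346508, mm9) had 10.0 FPKM at 6 h against 0.487 FPKM in the control, 20.6-fold higher (11.4 to 37.0). Il11 had 5.54 FPKM at 6 h against 0.103 FPKM in the control, a ratio of 53.7, the highest among the genes compared, with the widest interval of the 25 highest genes (23.7 to 122). The cytokine gene Clcf1 stood at 105 FPKM against 30.1 FPKM, 3.48-fold higher. The receptor and signalling genes did not pass 2-fold, with 24.1 FPKM at 6 h against 28.0 FPKM in the control for the shared receptor gene Il6st, 22.8 and 23.1 FPKM for Stat3, and 19.9 and 12.5 FPKM for the feedback gene Socs3. The median of this list was -0.04, and 0.02 when the libraries were rescaled to a median ratio of 1. Socs2, a cytokine feedback gene outside the list, rose 3.17-fold to 26.7 FPKM at 6 h, against 8.40 FPKM in the control.

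Several ligand genes of the EGF receptor rose, as did the receptor gene. Of 10 compared genes 5 rose and 0 fell, beside 0.746% of all genes rising, and the median difference was 0.91. Like the other lists, this one was chosen with earlier results of these data known, so that the count is no result about its genes. Hbegf had 78.2 FPKM at 6 h against 26.0 FPKM in the control, a ratio of 3.01 (2.78 to 3.26). Areg had 38.8 and 14.7 FPKM, 2.64-fold, and Ereg 49.0 and 21.8 FPKM, 2.25-fold. Btc was lower in level, at 5.29 FPKM in the 6 h library beside 1.78 FPKM in the control. Egfr, the receptor gene, was just past the threshold at 12.8 FPKM against 5.88 FPKM, with a difference of 1.01. In the order control, 1 h and 6 h, Hbegf had 26.0, 69.8 and 78.2 FPKM and Btc 1.78, 1.04 and 5.29 FPKM, so that the ligand genes did not share 1 time course. The neuregulin gene Nrg1, a ligand of related receptors, had 5.16 FPKM at 6 h against 8.88 FPKM in the control.

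ERK feedback genes, which the MAP kinase pathway induces and which restrain it, had a median difference of 0.27 over 20 genes, with 3 that rose and 0 that fell. The ERK phosphatase gene Dusp5 had 69.0 FPKM at 6 h against 17.2 FPKM in the control, 4.01-fold (3.49 to 4.60). Spry4, a Sprouty inhibitor gene, had 17.2 and 6.13 FPKM, and the phosphatase gene Dusp6 27.1 and 12.5 FPKM. Immediate early genes, by contrast, had, over 38 genes, a median of -0.03 that was 0.01 after rescaling to a median ratio of 1. Of these, 2 rose, the nuclear receptor gene Nr4a1 at 8.06 FPKM beside 1.87 FPKM and the zinc finger gene Egr2 at 4.28 FPKM beside 1.58 FPKM. Fos had 0.837 FPKM at 6 h against 0.475 FPKM in the control, and Egr1 14.9 and 18.1 FPKM. These genes were far higher after 1 h of washout, with Nr4a1 at 186, Egr2 at 58.8, Fos at 18.6 and Egr1 at 681 FPKM. Summed over all listed immediate early genes, the 1 h library held 3621 FPKM, beside 1329 FPKM for 6 h and 1291 FPKM for the control. Not every listed gene was highest there, since Ier5l had 39.6 FPKM after 1 h and 67.5 FPKM in the control. Rgs16, which encodes a GTPase activator for G proteins, rose 7.82-fold to 15.6 FPKM, against 2.00 FPKM in the control, and was higher still at 1 h with 30.3 FPKM.

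Among TGF-beta superfamily genes the ligands moved most. Inhba (chromosome 13, 16106308 to 16119044, mm9), whose product forms activin A, had 493 FPKM at 6 h against 66.3 FPKM in the control, 7.44-fold higher (7.02 to 7.89). It was the single riser of 10 compared inhibin, activin and follistatin genes, whose median was 0.04. Tgfb1 had 99.6 FPKM at 6 h against 33.3 FPKM in the control, a ratio of 2.99 (2.78 to 3.22). Tgfb3 was below the threshold at 22.6 FPKM against 11.4 FPKM, and Tgfb2 at 14.7 FPKM against 8.89 FPKM. Receptor genes differed among themselves, with 10.9 FPKM at 6 h against 7.90 FPKM in the control for Tgfbr1 but 13.4 and 23.7 FPKM for Tgfbr2. In this list of 15 genes 1 rose and 0 fell, with a median of 0.26.

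BMP and TGF-beta targets gave 1 gene that rose and 1 that fell out of 18, with a median of 0.15. Atoh8, a bHLH factor gene, fell to 4.08 FPKM at 6 h, against 11.2 FPKM in the control. Serpinb2, a plasminogen activator inhibitor gene, rose to 22.4 FPKM, against 7.75 FPKM. It was the 1 riser of the 10 compared genes in the list of plasminogen activators and inhibitors, which does not hold every gene of that system.

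Growth factor, endothelin and Hedgehog genes moved in both directions. Fgf2 rose to 10.6 FPKM at 6 h, against 4.39 FPKM in the control, while the fibroblast growth factor gene Fgf7 fell to 8.11 FPKM, against 22.7 FPKM, and overlaps Fam227b. Placental growth factor gene Pgf had 58.0 FPKM at 6 h against 20.8 FPKM in the control, the 1 riser of 20 genes of the VEGF, PDGF, HGF and nerve growth factor list. The ephrin gene Efnb1 rose 2.40-fold to 35.9 FPKM, and the WNT receptor gene Fzd5 2.74-fold to 8.69 FPKM, against 15.0 and 3.18 FPKM in the control. In the endothelin and natriuretic peptide list Nppb, which encodes a natriuretic peptide, rose to 4.43 FPKM, against 0.680 FPKM, and the endothelin-converting enzyme gene Ece1 to 47.9 FPKM, against 19.7 FPKM. The ligand gene Edn1 fell to 2.44 FPKM at 6 h, against 6.95 FPKM in the control, beside 29.1 FPKM at 1 h. Hedgehog pathway genes were at or below the control, with 0 of 7 above 0 difference, beside a median of -0.06 over all genes. The co-receptor genes Gas1 and Cdon fell, Gas1 to 15.1 FPKM against 41.5 FPKM and Cdon to 4.77 FPKM against 11.3 FPKM, while the receptor gene Ptch1 had 4.61 FPKM at 6 h against 4.68 FPKM in the control.

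Among chemokine and interleukin-1 family genes the 2 that moved were chemokine genes that fell. Of 14 compared genes 0 rose and 2 fell, with a median of -0.26. Cxcl5 had 34.7 FPKM at 6 h against 76.0 FPKM in the control, a ratio of 0.456 (0.415 to 0.502). Ccl7 had 53.4 FPKM at 6 h against 108 FPKM in the control, and Ccl2, which did not pass 2-fold, 184 and 297 FPKM. The chemokine receptor gene Cxcr4 also fell, to 1.06 FPKM against 3.44 FPKM. Of 16 compared genes of the NF-kB subunits, inhibitors and targets 0 rose and 0 fell, with a median of -0.02 that was 0.03 after rescaling to a median ratio of 1.

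In the adhesion and matrix lists Pkp1 and Has2 had the largest differences on the log2(FPKM + 1) scale. The desmosome gene Pkp1 (plakophilin) had 39.8 FPKM at 6 h against 5.60 FPKM in the control, 7.11-fold higher (6.37 to 7.93), and Cdh11, a mesenchymal cadherin gene, 11.8 and 4.19 FPKM. They were the 2 risers in a list of 15 cadherin and desmosome genes, of which 0 fell and 5 lay above a difference of 0, while Cdh15, a further cadherin gene that rose, is listed with the myogenic regulators. The desmosome genes Dsp, Dsg2, Dsc2 and Pkp3 were at 0 FPKM in every library. Jup had 13.4 FPKM at 6 h and in the control, and Pkp2 14.7 FPKM at 6 h against 20.4 FPKM in the control. Itgb3, the integrin beta 3 gene, rose 4.43-fold to 22.9 FPKM, against 5.17 FPKM, alone among 13 integrin and laminin genes. Has2, a hyaluronan synthase gene, had 65.4 FPKM at 6 h against 12.6 FPKM in the control, and its locus overlaps that of the antisense gene Has2as. Of 32 matricellular, elastic fibre and proteoglycan genes 3 rose and 0 fell: the tenascin gene Tnc at 183 FPKM against 69.9 FPKM, the proteoglycan gene Cspg4 at 6.74 FPKM against 2.77 FPKM, and the syndecan gene Sdc1 at 170 FPKM against 83.3 FPKM. Col5a3 was the 1 riser of 16 collagen genes, at 124 FPKM against 56.3 FPKM.

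In the list of matrix proteases and their inhibitors, 2 inhibitor genes rose and 0 protease genes did. Of 18 compared genes for MMP and ADAMTS proteases and their inhibitors, the 2 that rose were Timp1, at 1221 FPKM in the 6 h library and 538 FPKM in the control, and Timp3, at 134 and 42.9 FPKM. The inhibitor gene Timp2 had 189 FPKM at 6 h against 216 FPKM in the control, the membrane protease gene Mmp14 188 and 172 FPKM, and Mmp2 1.70 and 2.15 FPKM. The loci of Timp1 and Timp3 overlap those of Syn1 and Syn3, the strand of the libraries is not given, and whether fragments were shared was not tested. Ctgf, a matricellular gene and a target of YAP and SRF, rose to 451 FPKM at 6 h, against 213 FPKM in the control, beside 1189 FPKM at 1 h. It was the 1 riser among 22 genes of that target list, whose median was 0.02.

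Muscle genes gave large single differences in 2 lists. Of 10 compared myogenic regulators 1 rose, Cdh15, which encodes M-cadherin, at 87.0 FPKM in the 6 h library and 27.4 FPKM in the control, 3.18-fold (2.96 to 3.41). The list median was -0.08. Only 5 of 35 sarcomere and differentiation genes were compared. Of these Tnnt2, a troponin T gene, rose to 69.1 FPKM at 6 h, against 16.1 FPKM in the control, 4.29-fold (3.78 to 4.88), while Acta1, the skeletal actin gene, had 29.2 and 33.7 FPKM. Mylk2, the skeletal myosin light chain kinase gene and not a list member, rose to 2.88 FPKM, against 0.313 FPKM.

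The myoblast label was checked against marker genes. Des had 66.3 FPKM at 6 h against 62.2 FPKM in the control, Itga7 60.7 and 50.4 FPKM, and the determination gene Myf5 8.51 and 11.4 FPKM. Myod1, a determination gene usually taken to define these cells, was listed at 0 at 6 h and at 0.189 FPKM in the control, and Pax7 at 0 and 0.00958 FPKM. Myog had 0.310 FPKM at 6 h against 0.337 FPKM in the control. The libraries therefore carried Des, Itga7, Cdh15 and Myf5 and almost none of Myod1, Pax7 or Myog.

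Markers of other cell types were mostly low or near equal, and only Mcam and Cebpa passed 2-fold. Of 13 leukocyte markers 0 were compared and 7 were at 0 in every library, Ptprc among them, with a summed level of 1.88 FPKM at 6 h against 1.27 FPKM in the control. Of 12 endothelial markers 2 were compared and 5 were at 0 throughout, with sums of 4.27 and 5.69 FPKM, and Pecam1 was at 0 at 6 h and 0.0128 FPKM in the control. Osteoblast and chondrocyte markers summed to 18.9 FPKM at 6 h against 17.9 FPKM in the control, with Ibsp at 0. Neural and Schwann cell markers summed to 251 and 204 FPKM, most of it Nes, with Sox10 at 0. Fibroblast and mural cell markers summed to 5616 and 5449 FPKM, of which S100a4 was the main part, and Mcam alone rose, to 15.8 FPKM against 4.15 FPKM. Adipocyte markers summed to 36.2 FPKM at 6 h against 56.4 FPKM in the control, with 5 of 13 at 0 in every library. Cebpa, a transcription factor gene of fat cell and myeloid differentiation, fell to 2.76 FPKM against 11.3 FPKM. Lpl had 14.8 FPKM at 6 h against 24.6 FPKM in the control, Pparg 9.67 and 11.8 FPKM, and Fabp4 6.56 and 6.91 FPKM. Cebpd went the other way, with 2.34 and 1.75 FPKM. What part such cells had in the differences was not tested. In bulk RNA, fewer cells of a type and less RNA per cell cannot be told apart.

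**Figure D3:**
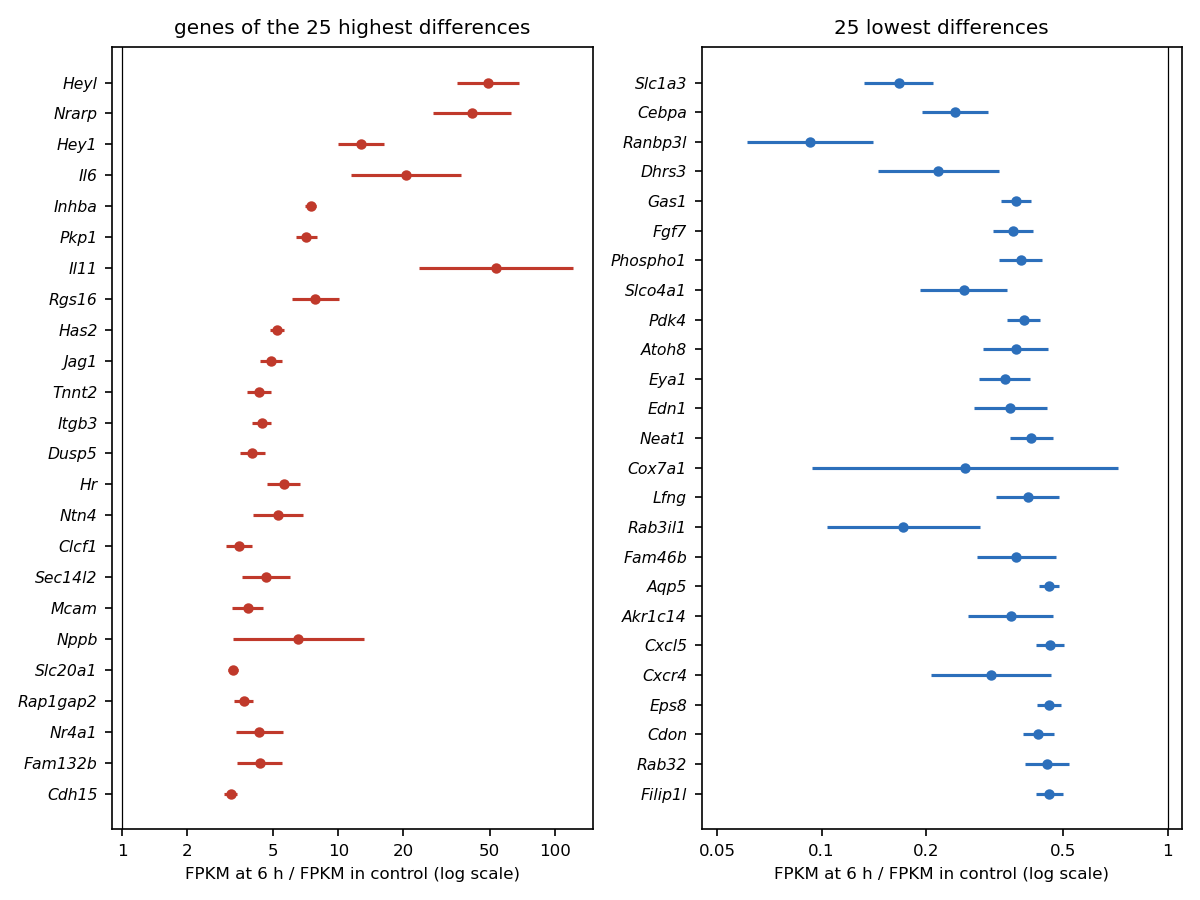
Ratio of FPKM at 6 h to FPKM in the control, on a logarithmic axis, for 24 of the 25 highest genes (left) and the 25 lowest genes (right), ordered by log2(FPKM + 1) difference. Bars are the intervals from the widths of the deposited 95% bounds and the vertical line marks a ratio of 1; Il11, Nppb and Cox7a1 have wide bars, and Inhba and Slc20a1 narrow ones.

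The remaining genes of the 25 highest belonged to no list. Hr, which encodes the hairless corepressor, had 7.86 FPKM at 6 h against 1.40 FPKM in the control. The netrin gene Ntn4 had 8.08 and 1.54 FPKM, and its locus overlaps Gm15915 and Gm8580. Sec14l2, a lipid-binding protein gene, had 8.07 and 1.75 FPKM, the phosphate transporter gene Slc20a1 139 and 42.6 FPKM, and Rap1gap2, a GTPase activator gene for Rap1, 16.8 and 4.61 FPKM. Fam132b had 7.77 FPKM at 6 h against 1.79 FPKM in the control. Of all 77 genes that rose, 42 belonged to one of the 59 lists, beside 937 of the 10326 genes compared. The lists were chosen with earlier results of these data known, so that these counts are no result about the genes. The median ratio of the 77 was 3.01.

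The genes that fell had a median ratio of 0.365, and 13 of the 30 were in a list, beside 937 of the 10326 genes compared. The glutamate transporter gene Slc1a3 had the lowest difference, at 1.11 FPKM in the 6 h library against 6.64 FPKM in the control, a ratio of 0.167 (0.133 to 0.209). It was the 1 faller of 14 amino acid transporter genes, whose median was -0.28, with 0 that rose. Ranbp3l had 0.268 and 2.90 FPKM, the lowest ratio of the genes that fell at 0.0926 (0.0609 to 0.141). Dhrs3, whose product reduces retinal, fell to 1.11 FPKM against 5.12 FPKM, the 1 faller of 9 retinoid genes, with 0 that rose. Pdk4, which restrains pyruvate oxidation, had 10.7 FPKM at 6 h against 27.9 FPKM in the control, and Eya1, which encodes a transcriptional coactivator and phosphatase, 2.16 and 6.40 FPKM. The phosphatase gene Phospho1, which overlaps Abi3, had 11.0 and 29.3 FPKM, and the transporter gene Slco4a1 1.05 and 4.07 FPKM. The long non-coding RNA Neat1 had 7.37 FPKM at 6 h against 18.2 FPKM in the control.

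Lower in the order of differences were Cox7a1 at 0.822 FPKM against 3.17 FPKM, Rab3il1 at 0.353 FPKM against 2.05 FPKM, Fam46b at 2.21 FPKM against 6.05 FPKM and Akr1c14 at 1.70 FPKM against 4.84 FPKM. Eps8, which encodes an actin regulator and substrate of the EGF receptor, had 17.0 FPKM at 6 h against 37.4 FPKM in the control, Rab32 10.2 and 22.9 FPKM, and Filip1l, which overlaps Cmss1, 13.4 and 29.4 FPKM. For 3 of the 30 genes, Ranbp3l, Cox7a1 and Rab3il1, the level at 6 h was under 1 FPKM, and for 10 of the 77 that rose the control was under 1 FPKM.

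Among the 882 abundant genes (mean of 100 FPKM or more), 7 rose and 1 fell. Among the 5 highest were Inhba, Tnc, Mmd and Timp1, where Mmd, a membrane protein gene of macrophage differentiation, had 252 FPKM at 6 h against 104 FPKM in the control. The water channel gene Aqp5 fell to 77.0 FPKM, against 170 FPKM. The next lowest, which did not pass 2-fold, were the coactivator gene Cited2 with 69.9 FPKM at 6 h against 132 FPKM in the control, Ccl2, the mitochondrial ribosome gene Mrps6 with 110 and 167 FPKM, and Tmem43 with 88.8 and 129 FPKM. By level, 17 of 2296 genes below 5 FPKM rose (0.740%) and 11 fell (0.479%), beside 7 (0.794%) and 1 (0.113%) of the 882 abundant genes. The genes just past the threshold upwards were Gm14005, Egfr and Ccnyl1 at 1.01 each, and those just under it Gcnt2 at 0.99, Rasal2 at 0.97 and Hes1 at 0.97. Downwards, Pfkfb2, which overlaps Yod1, at -1.02, Irf5 at -1.01 and Ccl7 at -1.01 were just past it, and 1300002E11Rik at -0.99, St3gal5 at -0.98 and Kcnj15 at -0.97 just short of it.

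Growth, cell cycle and stress genes did not pass 2-fold. Of 40 ribosome biogenesis genes 36 lay above a difference of 0, with a median of 0.18, and of 33 G1/S and DNA replication genes 5 did, with a median of -0.16. Over all genes the median was -0.06 and the 75th percentile 0.07. G2/M genes had a median of -0.08 over 29 genes, targets of NRF2 -0.10 over 34, and sterol and fatty acid synthesis genes -0.16 over 30. Cytosolic ribosomal protein genes had, over 55 genes, a median of -0.03 that was 0.04 after rescaling to a median ratio of 1. Of the 59 lists, 27 had no member past 2-fold, 21 had only genes that rose, 7 only genes that fell and 4 both.

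**Figure D4:**
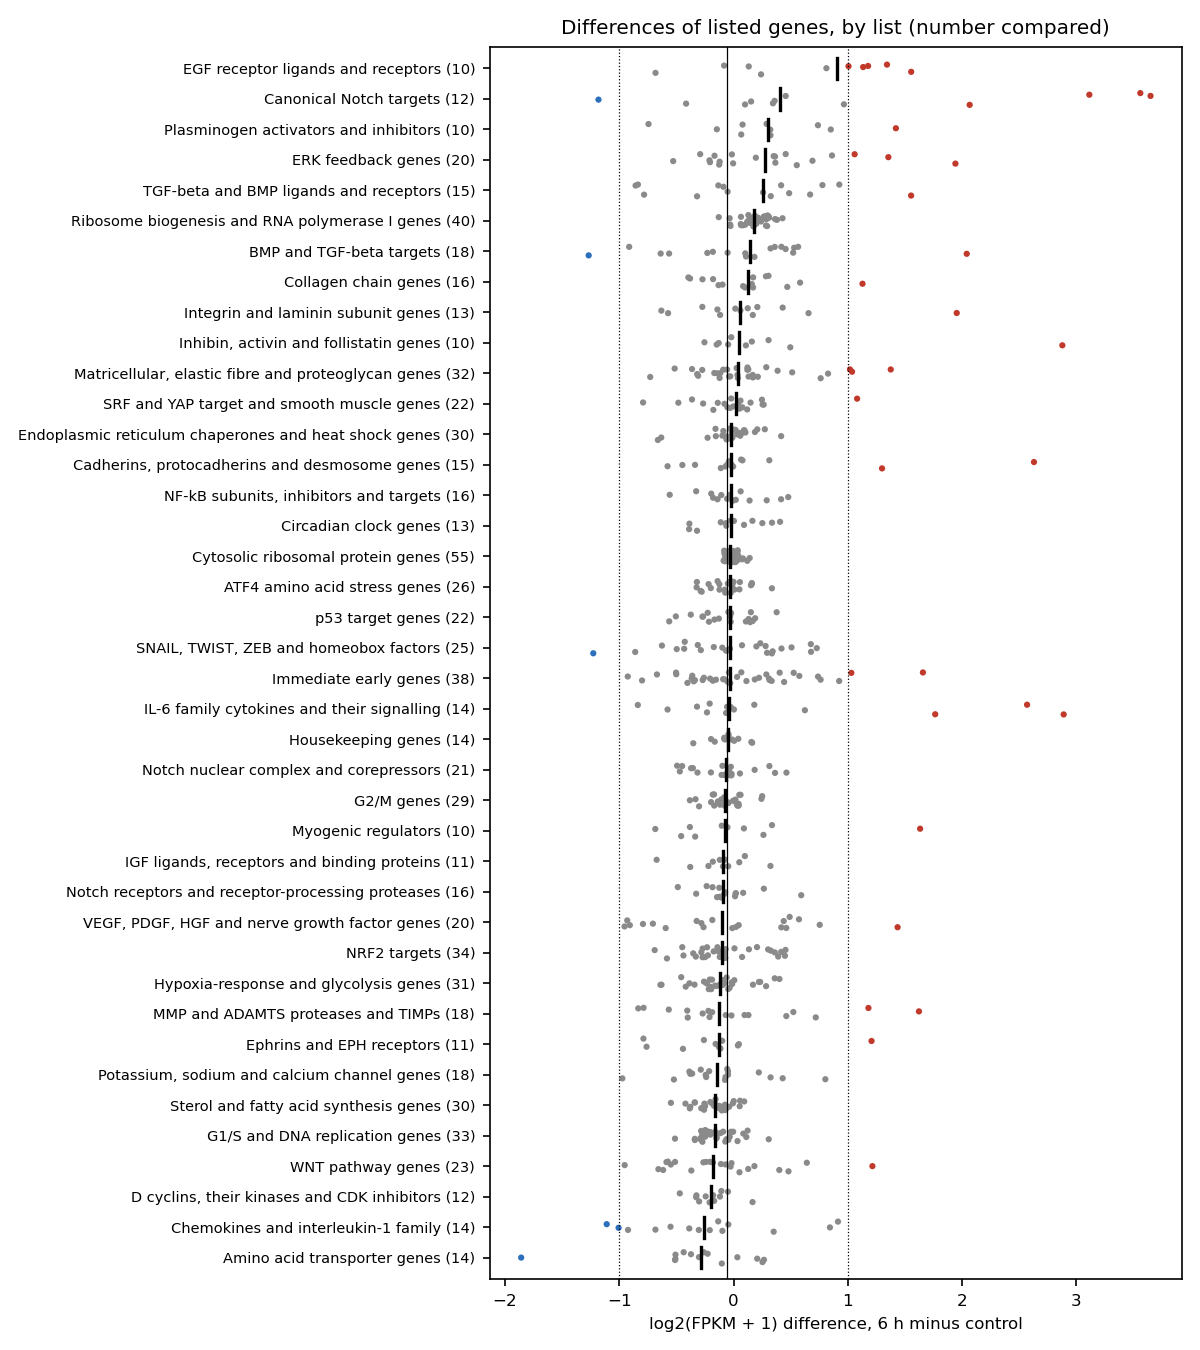
Log2(FPKM + 1) difference, 6 h minus control, of every compared gene in the 40 lists with at least 10 compared genes, ordered by the list median (black bars), with red and blue points past 2-fold upwards and downwards. The thin vertical line marks the median of all genes at -0.06 and the dotted lines a 2-fold difference. The EGF receptor and Notch target lists have the highest medians, 0.91 and 0.41. Most other lists have medians near the line with a few genes far from it. The lists were chosen with earlier results of these data known.

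Several of the genes that moved were next to each other on a chromosome, a pattern looked for after the positions of the called genes had been seen. Among 10282 compared genes with 1 locus in the files, ordered along the chromosomes, 9 of the 77 that rose had another that rose as a direct neighbour (11.7%), while 1.48% of all these genes had such a neighbour. Of the 30 that fell 4 were next to another that fell (13.3%), while 0.584% of all genes were. The nearest pairs were Klhl30 and Fam132b, 4.03 kb apart, Ccnyl1 and Fzd5, 4.92 kb apart, and Tnnt2 and Pkp1, 19.1 kb apart on chromosome 1 (mm9). Tnnt2 and Pkp1 encode proteins of different structures, the thin filament and the desmosome, and had ratios of 4.29 and 7.11. The EGF receptor ligand genes Ereg, Areg and Btc lay in a row on chromosome 5, with gaps of 46.0 and 209 kb. The lowest pair, Slc1a3 and Ranbp3l, lay 257 kb apart on chromosome 15, and the last pair, Cxcr4 and Pfkfb2 on chromosome 1, was 2097 kb apart.

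**Figure D5:**
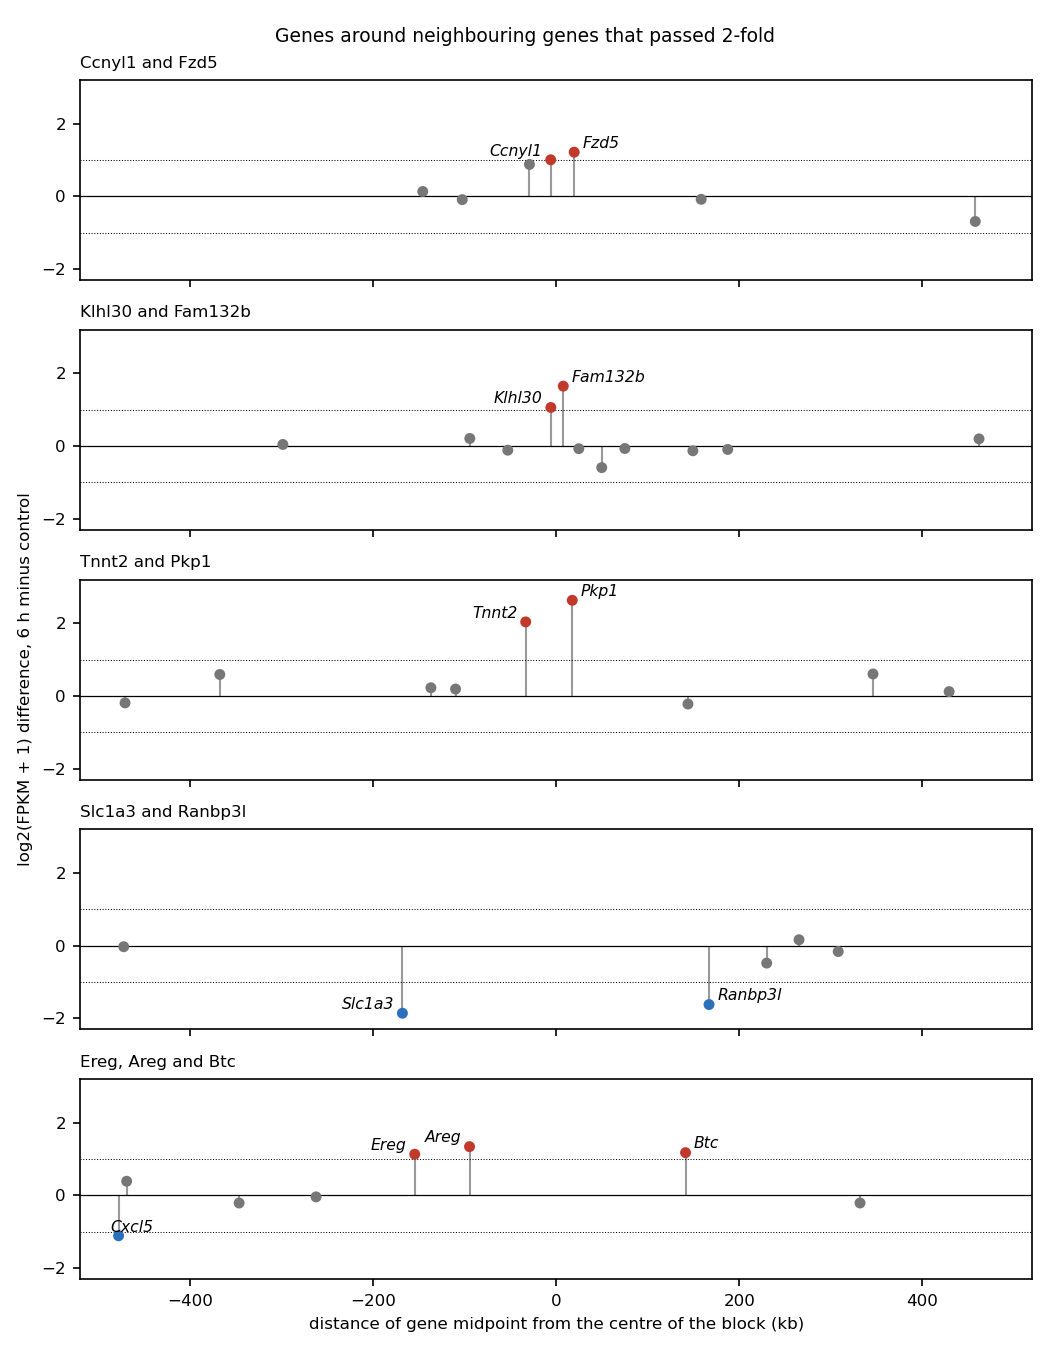
Log2(FPKM + 1) difference, 6 h minus control, of compared genes within 500 kb of the centre of 5 blocks of neighbours that passed 2-fold in the same direction, against the distance of each gene's midpoint from that centre in kb. Red points passed 2-fold upwards, blue points downwards and grey points neither. The genes beside the blocks are mostly near 0. Exceptions include 2810408I11Rik at 0.88 and Idh1 at -0.69, both in the window of Ccnyl1 and Fzd5. Cxcl5, which fell, lies in the window of Ereg, Areg and Btc, which rose.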

How the data were processed

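Per the labels' protocols, poly-T-enriched RNA went into barcoded Illumina libraries. The authors deposited FPKM values with lower and upper 95% bounds for 23807 rows per library, and TopHat, Cufflinks, FastQC and the build mm9 are named per the submitters' processing notes. Versions, settings, strand and annotation were not given in the sources used here. Very abundant genes can shift all other FPKM values, and overlapping genes can share fragments.

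The series table equals the tables of single libraries for all 23298 symbols to within 1e-06 FPKM. Its washout columns are headed cont with the time, which is not explained, and were matched by the time in the titles. The deposited values lay outside their own bounds for 20.0% of rows above 1 FPKM at 6 h and 21.5% in the control, so fold intervals use only the widths of the bounds. Depth was estimated from the spacing of low values, of which 64.0% at 6 h and 62.4% in the control lay within 0.15 of a whole number of fragments, where an even spread gives 30%. Whole reads could not be recovered, so that a count test had no basis.

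Differences are log2(FPKM + 1), 6 h minus control, which understates low genes. Scripts in Python 3.11.15 with pandas 2.3.3 were tested on simulated data. The members and the 59 lists (1451 symbols) were chosen with earlier results of these data known. Named were the 25 highest and 25 lowest genes, all Notch targets, Notch1, list members past 2-fold, the 5 highest and 5 lowest genes of at least 100 FPKM, and 3 genes on each side of each threshold. Further genes named for contrast, such as Mmp14 or Fos, were chosen after their values were seen, as were Socs2, Mylk2 and the neighbouring pairs. Alternatives were other pseudocounts, filters, scalings, thresholds and ways to combine rows. A few genes that this rule names are not reported here. The 1 h library entered only the filters and values set beside the comparison.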

Additional observations from a re-analysis of the deposited data

How the results depend on the processing

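No difference has a replicate check, and the unknown treatment of the control bears on every value. No paired analysis was possible because each group was a single library, and leaving out a replicate could not be done for the same reason. The median of the Notch targets stayed between 0.36 and 0.47 in the alternatives run. Beside 77 higher and 30 lower genes, a pseudocount of 5 gave 43 and 7, a pseudocount of 0.1 gave 80 lower, and the plain ratio with nothing added, an alternative chosen after seeing the data, gave 91 lower and 96 higher. A minimum mean of 5 FPKM gave 19 lower, and keeping genes at 0 and short RNAs gave 66 lower and 113 higher. At 1.5-fold 205 were higher and 246 lower, so that the excess of higher genes turned, and at 3-fold 28 and 3. The causes were not tested beyond what each setting changes by its construction. No called gene changed sign in the 13 other alternatives, but a pseudocount, filter or threshold cannot turn the sign of a gene's difference. List medians, for which there was no call, changed sign in some alternatives. At a minimum mean of 5 FPKM the sarcomere median was 0.92 instead of -0.20 and the MMP median 0.13 instead of -0.13. With no filter the collagen median was -0.01 instead of 0.13. Depth limits genes below about 1 FPKM most, such as the control levels of Il11 and Heyl.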

Other observations

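Symbols listed at 0 in some library were kept out of the comparison. Of these 53, 52 overlapped another locus (98.1%), beside 16.5% of the compared genes. At 0 at 6 h with at least 1 FPKM in the control were 13 of them. The stress factor gene Ddit3 was listed at 0 at 6 h and at 43.8 FPKM in the control, and its locus overlaps Mars. Znhit1 was listed at 0 at 6 h and at 36.9 FPKM in the control, and overlaps Plod3. At 0 in the control with at least 1 FPKM at 6 h were 18, among them Rpl26 at 166 FPKM, Sco2 at 29.3 FPKM and Rfc4 at 19.8 FPKM. Whether these zeros are failed estimates was not tested. Of the 85 short RNA symbols set apart, 18 passed 2-fold upwards and 22 downwards at 6 h.

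Over the 77 genes that rose, the level at 1 h lay between those of 6 h and control for 49, above both for 7 and below both for 21. Over the 30 that fell it lay between for 18, above both for 11 and below both for 1. Both counts share the control and the 6 h library with the comparison itself. Genes picked for a wide gap between those libraries leave more room for a 1 h level between them. The share over all compared genes was not counted.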
